A study of Homo sapiens with 24 samples.

Results

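TRAIL, the product of TNFSF10, and the 5 receptors that bind it form a small ligand and receptor family. The 6 genes described here, of 26475 in the deposited tables, are TNFSF10, TNFRSF10A, TNFRSF10B, TNFRSF10C, TNFRSF10D and TNFRSF11B. They were chosen by name, and the family was picked because TNFRSF10D was much higher in 786-M1A libraries carrying an shPAX8 construct than in 786-M1A sgNTC18 libraries. The comparison of shPAX8 with sgNTC18 within 786-M1A is therefore given as a description, without a test. The tests are in OS-LM1, between the 2 shPAX8 constructs within each line, and of the difference between the lines in that last contrast.

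RNA was sequenced from 24 libraries of 2 human clear cell renal carcinoma lines with mutant VHL. The lines, 786-M1A from 786-O and OS-LM1 from OS-RC2, were derived for their capacity to metastasise. Both were grown in RPMI with 10% FBS, and all 24 libraries came from cells that also carry a luciferase transgene. Each line was given sgNTC18, a non-targeting guide RNA that serves as the control here, or shPAX8-1 or shPAX8-2, which are RNA interference constructs against PAX8, the lineage transcription factor of renal epithelium. There were 4 libraries for each construct in each line. The study's methods describe inducible RNA interference plasmids, and a control RNA interference construct was not analysed here. The type of construct and the loss of PAX8 therefore cannot be told apart in any comparison of shPAX8 with sgNTC18. The labels do not say whether replicates were separate cultures, so the p-values measure only the spread between these libraries, which may be technical.

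TRAIL is a membrane ligand of the tumour necrosis factor family that is made by immune cells and by many epithelia. TNFRSF10A (TRAIL-R1, also DR4) and TNFRSF10B (TRAIL-R2, also DR5) carry an intracellular death domain and, when bound, recruit the adaptor FADD and caspase-8. TNFRSF10C (TRAIL-R3, also DcR1) has no intracellular part and TNFRSF10D (TRAIL-R4, also DcR2) has a truncated death domain, so both bind the ligand without starting this cascade and are called decoy receptors. TNFRSF11B (osteoprotegerin) is secreted, and binds RANKL as well as TRAIL. TNFSF10 is a known interferon-stimulated gene, and TNFRSF10B is a known target of p53 and of the stress factor CHOP.

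The promoter of the ligand gene is shown because TNFSF10 was the member for which the contrast of the constructs differed most between the lines, and because interferon-stimulated genes were followed beside it. In the GRCh38.p14 annotation TNFSF10 lies at chr3:172505508-172523430. The stretch shown is the 250 bases upstream of the annotated start, chr3:172523431-172523680, minus strand, from RefSeq, with the matches to the interferon element in capitals.
TNFSF10 promoter: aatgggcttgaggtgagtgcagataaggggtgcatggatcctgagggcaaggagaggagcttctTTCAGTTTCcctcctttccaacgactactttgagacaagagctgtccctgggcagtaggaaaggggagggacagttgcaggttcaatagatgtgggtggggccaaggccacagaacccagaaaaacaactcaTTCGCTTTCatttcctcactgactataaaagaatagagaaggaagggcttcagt
The letters GAAANNGAA, searched on both strands, matched at 2 places, TTCAGTTTC starting at base -186 and TTCGCTTTC starting at base -54 from the start site. Of 35116 RefSeq promoters with the same window, 6.9% held this motif at least once. The interferon gamma element TTCNNNGAA (held by 6.6% of promoters), the AP-1 site TGANTCA (6.6%), the hypoxia elements ACGTG (18.5%) and GCGTG (32.2%), the paired box core GCGTGAC (2.2%) and the SP1 site GGGCGG (42.6%) had 0 matches on either strand in this window. A match to TTCNNNGAA can overlap one to GAAANNGAA, and GCGTGAC contains GCGTG.

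In the same annotation the 4 membrane receptor genes lie side by side within 204970 bases of the short arm of chromosome 8, TNFRSF10B at chr8:23020133-23069031, TNFRSF10C at chr8:23102921-23117445, TNFRSF10D at chr8:23135588-23164027 and TNFRSF10A at chr8:23190452-23225102. TNFRSF11B lies far away on the long arm, at chr8:118923557-118951885. The reference transcripts of the members shared 0 exact stretches of 50 bases with one another. Even so, the expected counts of the membrane receptors were not whole numbers. In 786-M1A sgNTC18 replicate 2 they were 123.17 for TNFRSF10A, 4.54 for TNFRSF10C and 363.93 for TNFRSF10D. Some of their reads were thus divided among transcripts, and levels of these genes may include shared reads.

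Levels are CPM, read counts scaled to a common library size after TMM normalisation. Levels of the members are compared with one another only as TPM, which is per length, while marker genes are summed as CPM. Library totals ran from 11634419 to 52059375 counts with a median of 20511914.5, and OS-LM1 sgNTC18 libraries were the most evenly deep at 32918698 to 37086335. Within 786-M1A shPAX8-1, replicates 1 and 2 stood apart from replicates 3 and 4. The chi-square per gene between their counts was 44.8 to 77.5 across these pairs, against 14.1 and 3.73 within them and 3.96 to 89.6 in the other groups. The members' tested results that rest on this group are also given without each pair, and most described values are not. The summed level of 8 renal epithelium and clear cell carcinoma markers was 9638 to 12810 CPM in OS-LM1 sgNTC18, 4818 to 6650 CPM in OS-LM1 shPAX8, 9836 to 10180 CPM in 786-M1A sgNTC18 and 7745 to 8894 CPM in 786-M1A shPAX8. VIM made up most of this sum, at a mean of 8727 CPM in 786-M1A sgNTC18 and 7891 CPM in 786-M1A shPAX8-1. In 786-M1A all 7 markers in the fit were below 0 for shPAX8 against sgNTC18, with a median log2 fold change of -2.11, as a description. PAX8 is among them, and CA9 was at 0 in all 4 libraries of 786-M1A sgNTC18. Of the 8, 2 rose and 4 fell in OS-LM1 shPAX8, with a median of -0.44, and with the trend across genes with transcript GC content removed 4 rose and 4 fell, with a median of -0.08.

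The targeted gene was lower in every shPAX8 library than in every sgNTC18 library of its line. PAX8 stood at 291.6, 393.2, 359.8 and 319.2 CPM in 786-M1A sgNTC18, at 22.9, 21.95, 15.17 and 14.8 CPM with shPAX8-1, and at 41.36, 45.54, 42.6 and 39.99 CPM with shPAX8-2. In OS-LM1 it stood at 261.9, 279, 244.7 and 254 CPM in sgNTC18, at 85.57, 78.36, 59.85 and 89.17 CPM with shPAX8-1, and at 76.2, 63.76, 97.03 and 79.89 CPM with shPAX8-2. PAX8 thus kept a higher level under the constructs in OS-LM1 than in 786-M1A. In OS-LM1 the shPAX8 libraries together fell by 1.73 on the log2 scale (SE 0.10, edgeR adjusted p = 9.39e-12). In 786-M1A shPAX8-1 left less PAX8 than shPAX8-2 (log2 fold change -1.18, edgeR adjusted p = 4.01e-05, and -1.51 or -0.91 without replicates 1 and 2 or 3 and 4), and in OS-LM1 the constructs differed by -0.05 (adjusted p = 0.797).

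**Figure D1:**
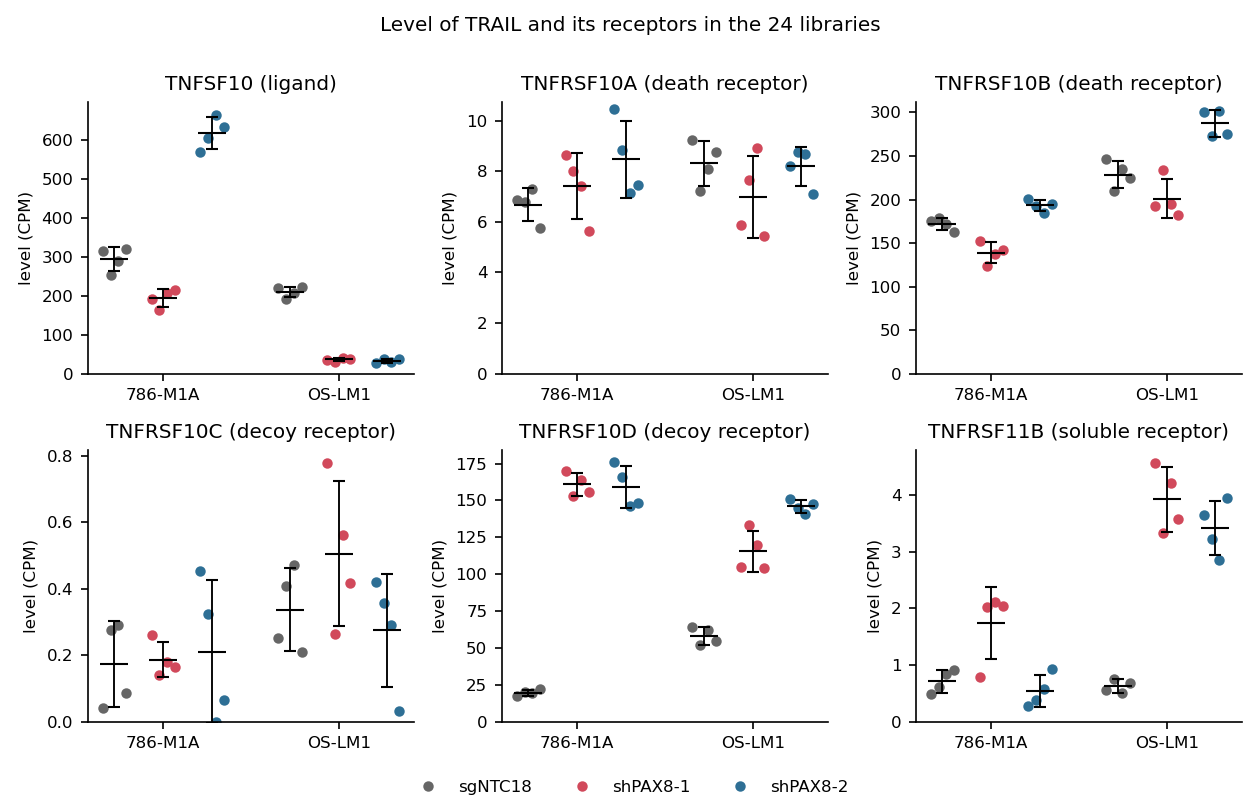
Level of each member in CPM (linear axis from 0, 1 panel per gene) in the 24 libraries, grouped by line and construct, with points for libraries and lines for group means and SD. TNFSF10 falls in both OS-LM1 shPAX8 groups to 28.48 to 41.38 CPM but splits by construct in 786-M1A, and TNFRSF10D is higher in every shPAX8 library of both lines.

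In OS-LM1, 2 of the 6 members rose, 1 fell and 3 did not pass the test when all 8 shPAX8 libraries were compared with the 4 sgNTC18 libraries (edgeR quasi-likelihood test, Benjamini-Hochberg adjustment over 15049 genes at 0.05). The decoy TNFRSF10D and the soluble receptor TNFRSF11B rose, and the ligand TNFSF10 fell. Changes were common across all genes in this comparison, with 36.4% of genes called higher and 37.1% called lower, so the number of members called is no more than that background. With shPAX8-1 alone 2 members were higher and 2 lower, beside 35.6% and 35.8% of all genes. With shPAX8-2 alone 3 were higher and 1 lower, beside 34.3% and 34.1%. These construct comparisons share the same 4 sgNTC18 libraries.

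TNFSF10 fell in OS-LM1 with both constructs. It stood at 220.1, 192.6, 206.7 and 222 CPM in sgNTC18, at 36.25, 30.74, 41.38 and 38.51 CPM with shPAX8-1, and at 28.48, 36.95, 29.02 and 37.88 CPM with shPAX8-2. The lowest sgNTC18 library was thus far above the highest shPAX8 library, and the constructs overlapped. The ligand transcript fell by 2.60 on the log2 scale (SE 0.09), to 0.165 of its control level (edgeR adjusted p = 4.01e-15). It fell by 2.54 with shPAX8-1 and fell by 2.66 with shPAX8-2 on that scale. Between the constructs the difference was 0.12 (95% interval -0.09 to 0.34, adjusted p = 0.443). TRAIL is also made by leukocytes, but these libraries came from a cultured carcinoma line. The 4 leukocyte markers summed to 0.3615 to 0.5286 CPM in OS-LM1 sgNTC18 and 1.749 to 3.968 CPM with the constructs. CD3E was at 0 in all 24 libraries, and a link between these markers and the ligand was not tested. In bulk RNA, fewer cells of a type and less RNA per cell cannot be told apart.

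In 786-M1A the constructs lay on opposite sides of sgNTC18 for TNFSF10. It stood at 315.8, 253.1, 291.1 and 320.5 CPM in sgNTC18, at 191.1, 163.2, 206.8 and 216.4 CPM with shPAX8-1, and at 571.4, 606.9, 666.4 and 633.4 CPM with shPAX8-2. None of these ranges overlapped, with shPAX8-1 lowest and shPAX8-2 highest. Against sgNTC18 the log2 fold change was -0.58 with shPAX8-1, 1.09 with shPAX8-2 and 0.25 for the constructs together, given as a description. With the GC trend across genes removed the first was -1.03 and the last -0.01. The direct comparison of the constructs, which the choice of genes did not use, gave -1.67 (SE 0.11, edgeR adjusted p = 1.33e-07), or 0.314 of the shPAX8-2 level. It was -1.56 without shPAX8-1 replicates 1 and 2 and -1.80 without replicates 3 and 4.

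The contrast of the constructs differed between the lines for the ligand. Tested in 1 fit over all 24 libraries, the log2 fold change of shPAX8-1 against shPAX8-2 was 1.82 higher in OS-LM1 than in 786-M1A (SE 0.16, edgeR adjusted p = 1.34e-08), and 1.72 or 1.96 higher when 786-M1A shPAX8-1 replicates 1 and 2 or replicates 3 and 4 were left out. Of the 5 members that entered this fit, 1 was called higher and 2 lower, beside 12.7% and 14.5% of all genes. Within 786-M1A the comparison of the constructs called 1 of 5 members higher and 2 lower, beside 24.2% and 22.9% of all genes. Within OS-LM1 it called 0 of 6 higher and 2 lower, beside 12.4% and 16.7%. PAX8 itself, left at unequal levels by the constructs in 786-M1A, differed between the lines by 1.16 in the same contrast (adjusted p = 0.00015, and 1.49 or 0.90 without the same pairs), and its part in the ligand's difference was not tested.

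**Figure D2:**
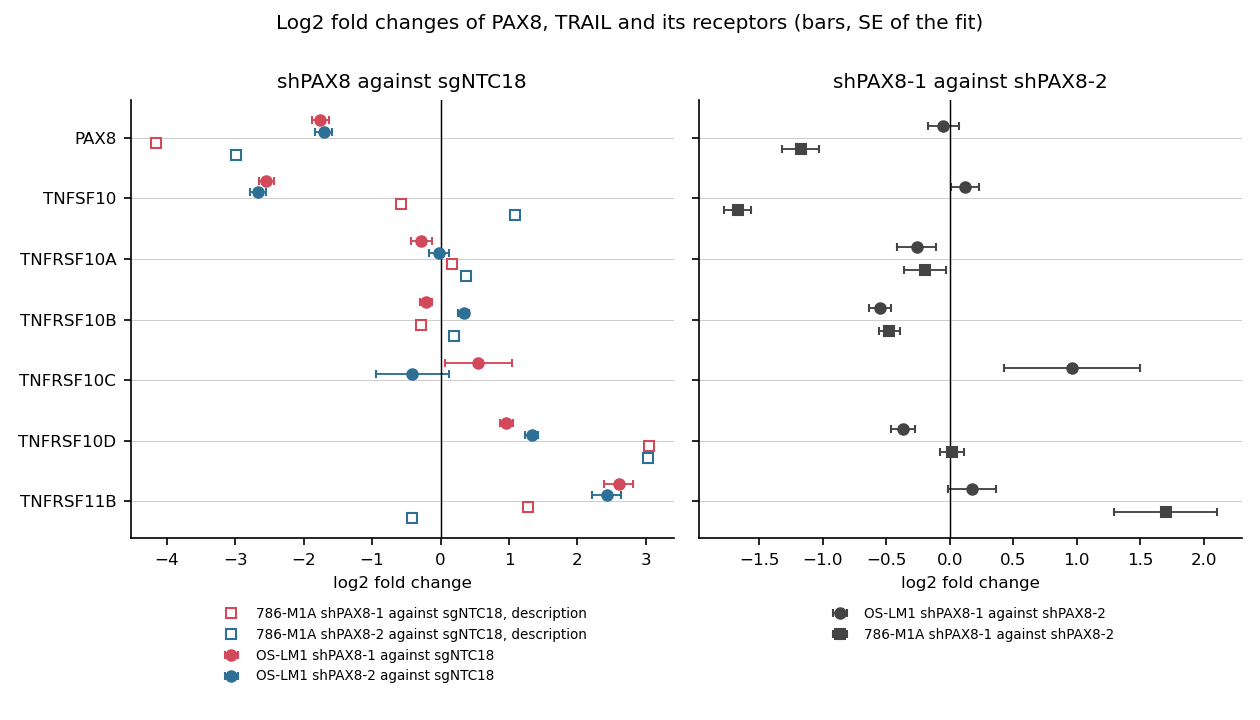
Log2 fold changes of PAX8 and the members (x axis) for each shPAX8 construct against sgNTC18 and for shPAX8-1 against shPAX8-2, by line. Filled markers with SE bars are tested and open markers are descriptions. Against sgNTC18, TNFSF10 lies at -2.54 with shPAX8-1 and -2.66 with shPAX8-2 in OS-LM1, while its values in 786-M1A lie on both sides of 0.

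The death receptors start the cascade. TNFRSF10B, the more abundant of them, stood at 246.5, 209.3, 234.5 and 224.4 CPM in OS-LM1 sgNTC18, at 192.2, 233.5, 195 and 182.3 CPM with shPAX8-1, and at 300.3, 272.8, 301.1 and 275.6 CPM with shPAX8-2. In CPM every shPAX8-2 library lay above every other OS-LM1 library, while shPAX8-1 overlapped sgNTC18. In TPM shPAX8-1 reached 113.8, above the lowest shPAX8-2 library at 109.73. With shPAX8-2 the gene rose by 0.34 on the log2 scale (SE 0.09, edgeR adjusted p = 0.00198). With shPAX8-1 it fell by 0.21 (SE 0.09, adjusted p = 0.0346), a call that was lost in 13 of 19 alternative analyses, with adjusted p-values from 0.00405 to 0.179. The call was lost without sgNTC18 replicate 1 (-0.15), 3 (-0.18) or 4 (-0.20), without shPAX8-1 replicate 1 (-0.19), 3 (-0.21) or 4 (-0.17), and without shPAX8-2 replicate 3 (-0.19) or 4 (-0.19). For the constructs together the difference was not detectable (0.06, 95% interval -0.08 to 0.21, adjusted p = 0.465).

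TNFRSF10B was lower with shPAX8-1 than with shPAX8-2 in both lines. In 786-M1A it stood at 174.8, 178.8, 171.6 and 162.2 CPM in sgNTC18, at 152.4, 123.9, 137.8 and 142.1 CPM with shPAX8-1, and at 200.6, 193, 184.9 and 194.8 CPM with shPAX8-2. These CPM ranges did not overlap, and sgNTC18 lay between the constructs. In TPM sgNTC18 (73.15 to 84.33) overlapped shPAX8-2 (77.03 to 85.59). The difference of the constructs was -0.55 in OS-LM1 (SE 0.09, edgeR adjusted p = 9.83e-05) and -0.48 in 786-M1A (SE 0.09, adjusted p = 0.000607), where it was -0.47 or -0.48 without either pair of shPAX8-1 replicates. The lines did not differ detectably in it (-0.04, adjusted p = 0.833, and -0.04 without either pair). Against sgNTC18 the described log2 fold changes in 786-M1A were -0.28 with shPAX8-1 and 0.19 with shPAX8-2.

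TNFRSF10A, the other death receptor, stayed at 5.426 to 10.47 CPM across all 24 libraries. No tested comparison called it. The log2 fold change in OS-LM1 was -0.15 for the constructs together (95% interval -0.40 to 0.10, edgeR adjusted p = 0.302), -0.28 with shPAX8-1 (adjusted p = 0.106) and -0.02 with shPAX8-2 (adjusted p = 0.914). It passed the threshold for shPAX8-1 when libraries were thinned to the smallest total (-0.42, adjusted p = 0.0311) or without shPAX8-1 replicate 3 (-0.43, adjusted p = 0.0163), and in 17 of 19 alternative analyses it did not (adjusted p up to 0.343). In 786-M1A shPAX8-1 against shPAX8-2 gave -0.20 (adjusted p = 0.346), with -0.40 without shPAX8-1 replicates 1 and 2 and -0.03 without replicates 3 and 4, neither called, and the described change against sgNTC18 was 0.27. The ranges of neighbouring groups, ordered by mean TPM from 7.165 to 8.43, all overlapped.

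The decoy TNFRSF10D is the gene for which the family was chosen. In 786-M1A it stood at 17.33, 20.12, 19.42 and 22.13 CPM in sgNTC18, at 170.2, 153.2, 164.1 and 156 CPM with shPAX8-1, and at 176, 165.6, 146.1 and 148.4 CPM with shPAX8-2. The shPAX8 libraries all lay far above the controls and the constructs overlapped. As a description, the log2 fold change was 3.04, an 8.22-fold higher level, with 3.05 for shPAX8-1 and 3.03 for shPAX8-2, and it was 3.03 or 3.02 without either pair of shPAX8-1 replicates. In this comparison 1 of 6 members was higher in every shPAX8 library than in every control and 0 were lower, beside 22.4% and 24.9% of all genes. The constructs did not differ detectably (0.02, 95% interval -0.18 to 0.21, edgeR adjusted p = 0.9, and 0.003 or 0.03 without those pairs).

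The choice of TNFRSF10D named its difference in 786-M1A only, and in OS-LM1 it rose too. It stood at 64.21, 51.76, 62.1 and 54.95 CPM in sgNTC18, at 104.9, 133.1, 119.6 and 104.1 CPM with shPAX8-1, and at 150.8, 144.9, 140.5 and 147.8 CPM with shPAX8-2. In CPM no range overlapped another, while in TPM the constructs overlapped (48.66 to 74.35 with shPAX8-1 and 67.36 to 78.42 with shPAX8-2). The shPAX8 level was 2.21-fold the control level (log2 fold change 1.15, SE 0.08, edgeR adjusted p = 3.05e-10), and this call was kept in 19 of 19 alternative analyses. Whether the fold differed from that in 786-M1A was not tested. It rose by 0.96 with shPAX8-1 (adjusted p = 2.07e-08) and by 1.33 with shPAX8-2 (adjusted p = 2.77e-10), and was lower with shPAX8-1 than with shPAX8-2 (-0.37, SE 0.09, adjusted p = 0.00511). The constructs' contrast was 0.36 lower in OS-LM1 than in 786-M1A, with an adjusted p that rounds to 0.05 and lies just under the threshold. That call was lost in 26 of 33 alternative analyses, among them those without 786-M1A shPAX8-1 replicates 1 and 2 (-0.33) or 3 and 4 (-0.37), with adjusted p-values from 0.0204 to 0.116.

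By mean TPM, TNFRSF10D stood highest in 786-M1A shPAX8-1 (78.1 TPM) and shPAX8-2 (76.72 TPM), then in OS-LM1 shPAX8-2 (70.83 TPM) and shPAX8-1 (58.59 TPM). The ranges of neighbours in this order overlapped. OS-LM1 sgNTC18 at 28.88 TPM and 786-M1A sgNTC18 at 10.36 TPM each stood apart from the groups beside them, so the ratio between the lines was widest in the controls.

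TNFRSF10C, the other decoy, was at the limit of detection. Its counts ran from 0 to 16.71 per library (0 to 0.7775 CPM), and 786-M1A shPAX8-2 replicate 3 was at 0, which allows a level of up to 0.2486 CPM at 3 counts. It passed the low count filter in OS-LM1 only, where the log2 fold change was 0.07 (95% interval -0.81 to 0.95, edgeR adjusted p = 0.896). A change of either sign was not detectable at this depth.

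TNFRSF11B, the soluble receptor, was low in every library but rose in OS-LM1 with both constructs. It stood at 0.5635, 0.7616, 0.5008 and 0.693 CPM in OS-LM1 sgNTC18, at 4.568, 3.333, 4.215 and 3.567 CPM with shPAX8-1, and at 3.639, 3.224, 2.858 and 3.939 CPM with shPAX8-2. The constructs overlapped and both lay wholly above sgNTC18, where the lowest library held 18 counts. The level rose 5.73-fold (log2 fold change 2.52, SE 0.19, edgeR adjusted p = 6.23e-10), by 2.61 on the log2 scale with shPAX8-1 and by 2.43 with shPAX8-2. Osteoprotegerin is also made by stromal cells, but these libraries came from a cultured carcinoma line. In the same comparison 3 of 3 genes known as fibroblast markers rose. Their summed level was 14.16 to 19.36 CPM in OS-LM1 sgNTC18 and 102.9 to 208.3 CPM with the constructs. COL1A1 made up most of it, at 1901 to 2901 counts per library with shPAX8-1, beside 264 to 381 for COL3A1 and 11 to 24 for DCN. Each of the 3 was above 0 in at least 1 control library. A link between these genes and TNFRSF11B was not tested.

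In 786-M1A TNFRSF11B differed by construct. It stood at 0.4929, 0.6081, 0.8413 and 0.9222 CPM in sgNTC18, at 0.7843, 2.025, 2.107 and 2.044 CPM with shPAX8-1, and at 0.2845, 0.3777, 0.5802 and 0.9331 CPM with shPAX8-2. Replicate 1 of shPAX8-1 lay within the other groups, and the other 3 lay above them. The log2 difference of shPAX8-1 from shPAX8-2 was 1.70 (SE 0.41, edgeR adjusted p = 0.00388), and it was 1.95 (adjusted p = 0.00082) without replicates 1 and 2 and 1.40 (adjusted p = 0.0466) without replicates 3 and 4. This contrast was lower in OS-LM1 than in 786-M1A (log2 difference -1.5, SE 0.42, adjusted p = 0.00984), while without replicates 1 and 2 it was -1.74 and without replicates 3 and 4 it was -1.22 and no longer called (adjusted p = 0.077, the highest of 33 alternative analyses, of which the lowest was 0.000925). Against sgNTC18 the described log2 fold change was 1.28 with shPAX8-1 and -0.42 with shPAX8-2.

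**Figure D3:**
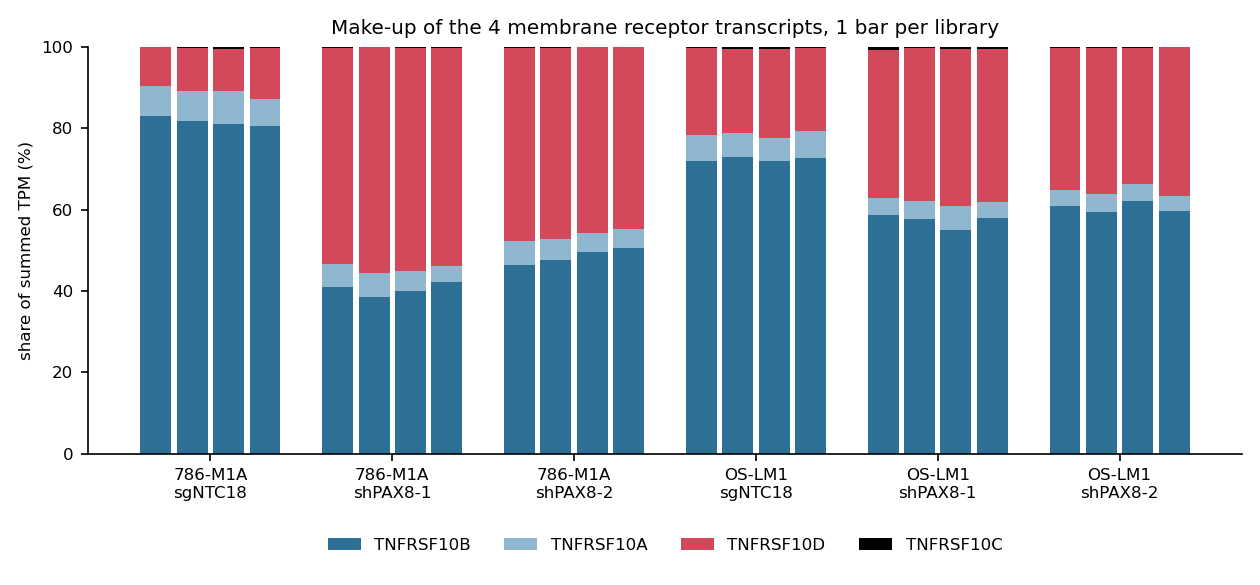
Share of the summed TPM of the 4 membrane receptors (y axis, percent, from 0 to 100) taken by each receptor, with 1 stacked bar per library by line and construct. The decoys take 9.471 to 12.75% in 786-M1A sgNTC18 and 53.42 to 55.59% in 786-M1A shPAX8-1, and in OS-LM1 they take 20.61 to 22.27% in sgNTC18 and at most 39.13% with the constructs.

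Set against each other by TPM, the membrane receptors differed in make-up between the groups, as a description. The decoys TNFRSF10C and TNFRSF10D held 21.44% ± 0.718 (SD, n = 4) of the receptors' summed TPM in OS-LM1 sgNTC18, 38.08% ± 0.805 with shPAX8-1 and 35.42% ± 1.38 with shPAX8-2. In 786-M1A they held 11.01% ± 1.34, 54.44% ± 1.03 and 46.38% ± 1.39 in the same order. Nearly all of this was TNFRSF10D, so in 786-M1A the shares carry the choice of genes and are a description. The share of TNFRSF10B was 72.38%, 57.28% and 60.54% in OS-LM1 and 81.57%, 40.46% and 48.61% in 786-M1A. As the shares sum to the whole, a higher decoy share leaves a lower share for TNFRSF10B at a like level of its own. The receptors' summed level was 136.4, 155.4 and 201.1 TPM in OS-LM1 and 96.42, 143.9 and 165.7 TPM in 786-M1A, for sgNTC18, shPAX8-1 and shPAX8-2.

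The ratio of ligand to membrane receptor transcripts, both in TPM, was 1.403 in OS-LM1 sgNTC18, 0.2228 with shPAX8-1 and 0.1466 with shPAX8-2. The lowest control library (1.334) was above the highest library with a construct (0.256). In 786-M1A the ratio was 2.955 in sgNTC18, 1.207 with shPAX8-1 and 3.327 with shPAX8-2, and there the sgNTC18 range (2.444 to 3.34) overlapped that of shPAX8-2 (2.827 to 3.818). As a description, more ligand than receptor transcript was thus present in every 786-M1A group and in the OS-LM1 controls, and less in the OS-LM1 shPAX8 groups.

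The members did not form 1 block across libraries. Over the 12 OS-LM1 libraries the log2 CPM of TNFSF10 had a Pearson r of -0.956 with TNFRSF10D and -0.967 with TNFRSF11B, whereas over the 12 of 786-M1A these values were 0.148 and -0.69, and TNFSF10 followed TNFRSF10B (0.88). These libraries fall into 3 construct groups per line, so the values mostly restate the group levels. TNFRSF10A and TNFRSF10B, the death receptors, had an r of 0.553 in OS-LM1 and 0.311 in 786-M1A.

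Interferon-stimulated genes, a class to which TNFSF10 belongs, fell in OS-LM1. Of 13 on the list 11 fell, IFI44 rose (0.41) and IFIT3 did not pass the test (-0.06), beside 37.1% of all genes lower and 36.4% higher. The median log2 fold change was -0.65 against -0.01 over all genes, and with the GC trend removed 9 of the 13 fell and 0 rose. IFI44L fell by 2.23 (SE 0.21, edgeR adjusted p = 1.1e-08), IFIT1, which binds foreign RNA, fell by 0.96 (adjusted p = 3.74e-07) and OAS1, an RNA sensor, fell by 0.95 (adjusted p = 1.2e-06). With shPAX8-1 alone 5 of the 13 fell, and IFI44 (0.96) and IFIT3 (0.92) rose, beside 35.8% of all genes lower and 35.6% higher. That split was 4 and 4 once the GC trend was removed. With shPAX8-2 alone 12 fell and 0 rose, beside 34.1% and 34.3% of all genes. TNFSF10 fell by a like amount with either construct. Between the constructs 10 of 13 were higher with shPAX8-1, beside 12.4% of all genes, led by IFI44L (2.60), IFIT3 (1.97) and IFIT1 (1.72). TNFSF10 differed by 0.12 there. The part of interferon signalling in the level of TNFSF10 was not tested.

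In 786-M1A the interferon-stimulated genes and the ligand differed in pattern. All 13 listed genes had a log2 fold change below 0 for shPAX8 against sgNTC18, with a median of -3.94 against 0.04 over all genes, as a description. OAS2 stood at 4931 to 8596 counts in sgNTC18 libraries and at 2 to 17 counts with the constructs (-9.60), and IFI44L (-7.81) and OAS1 (-6.76) followed it. Between the constructs, 8 of 13 were higher with shPAX8-1 and 0 lower, beside 24.2% and 22.9% of all genes. They were led by OAS2 (2.22, SE 0.33, edgeR adjusted p = 0.000152), IFI44L (1.78) and IFIT3 (1.66), and TNFSF10 was lower with shPAX8-1. The counts were 8 and 3 without shPAX8-1 replicates 1 and 2, and 6 and 0 without replicates 3 and 4. The constructs' contrast differed between the lines for 4 of the 13, 3 higher in OS-LM1 (MX1, 1.48, IFI6, 1.16, and IRF9, 0.72) and 1 lower, beside 12.7% and 14.5% of all genes. With the GC trend removed 7 of the 13 were higher and 1 lower. Whether interferon signalling has a part in the ligand's levels was not tested here either.

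**Figure D4:**
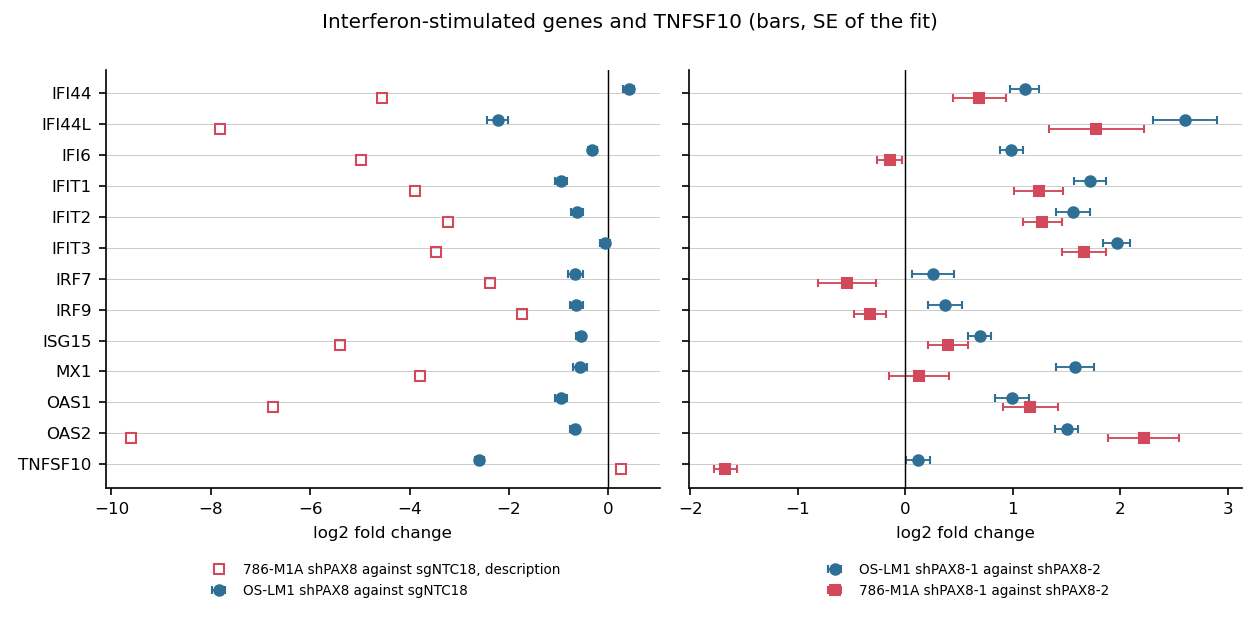
Log2 fold changes (x axis) of 12 of the 13 interferon-stimulated genes and TNFSF10 in each line, for shPAX8 against sgNTC18 and for shPAX8-1 against shPAX8-2, with SE bars where tested and open markers where described. In OS-LM1 most values against sgNTC18 lie between 0 and -1 while TNFSF10 lies at -2.60, and in 786-M1A OAS2 reaches -9.60 while TNFSF10 lies at 0.25.

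The machinery downstream of the death receptors moved in both directions in OS-LM1. Of 18 genes of death receptor signalling 7 rose, 8 fell and 3 did not pass the test, with a median log2 fold change of -0.07 against -0.01 over all genes. Across all genes 36.4% were called higher and 37.1% lower, so 7 and 8 of 18 are near that background. The same shares apply to the other lists of this paragraph. With the GC trend across genes removed 5 of the 18 rose and 9 fell. Those that fell most were TRADD (-1.58, SE 0.14, edgeR adjusted p = 2.89e-09), the adaptor of the tumour necrosis factor receptor, TRAF2 (-1.31) and the apoptosis inhibitor BIRC3 (-1.09). Of 14 BCL2 family genes 4 rose and 7 fell, with a median of -0.26, which was 0.03 with the GC trend removed. The pro-survival MCL1 rose by 1.08 and BCL2A1 by 0.95, and the pro-survival BCL2 and the BH3-only BBC3 (PUMA) fell by 1.03 and 1.34. Of the 5 other death receptors and ligands tested 3 rose and 0 fell, TNFRSF21 (1.41), TNF (0.97) and FAS (0.26). The RANK receptor TNFRSF11A was the 1 gene tested of the RANK axis, and it did not pass (-0.14).

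Genes of the same lists also differed between the constructs. In this contrast 12.4% of all genes were called higher and 16.7% lower in OS-LM1, and 24.2% and 22.9% in 786-M1A. In OS-LM1, 5 of the 18 signalling genes were higher and 2 lower with shPAX8-1 than with shPAX8-2, led by BIRC3 (0.95) and the initiator caspases CASP8 (0.63) and CASP10 (0.45), with APAF1 (-0.35) among the lower, and 4 of 14 BCL2 family genes were higher and 3 lower, led by BCL2 (-1.81), BCL2A1 (1.33) and BMF (-1.04). In 786-M1A, 6 signalling genes were higher and 6 lower, led by BIRC3 (2.26), TRADD (-1.40) and cytochrome c, CYCS (1.26), against 7 and 7 without shPAX8-1 replicates 1 and 2 and 4 and 3 without replicates 3 and 4, and 4 BCL2 family genes were higher and 4 lower (5 and 2 with the GC trend removed), led by BCL2A1 (3.12), BMF (-1.34) and PMAIP1 (1.33). BIRC3 was higher with shPAX8-1 in both lines, and the difference between lines was itself called (-1.29, SE 0.25, edgeR adjusted p = 0.000445). Against sgNTC18 in 786-M1A, TRADD (-3.14), FADD (-1.43) and the BH3-only BIK (-3.36) were lower, as a description.

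TNFRSF10B can be induced through p53 or CHOP, so the targets of both were followed beside it. In OS-LM1 36.4% of all genes were called higher and 37.1% lower for shPAX8 against sgNTC18, which applies to both lists. Of 12 p53 targets there 7 rose and 3 fell, with a median log2 fold change of 0.38. ZMAT3 rose by 1.90 (SE 0.11, edgeR adjusted p = 4.03e-12) and RRM2B by 1.21, while BBC3 fell by 1.34, and FDXR and BAX by 0.94 and 0.71. BBC3 and BAX also stand on the BCL2 family list, and FAS stands on both the p53 list and that of other death receptors. The counts of these lists are thus not separate. Of 8 genes of the ATF4 and CHOP response 2 rose and 3 fell, with a median of -0.14, and with the GC trend removed 4 rose and 3 fell, with a median of 0.27. ATF3 rose by 2.65 and PPP1R15A by 0.29, and TRIB3, DDIT3, which encodes CHOP, and ASNS fell by 1.12, 0.76 and 0.48. For shPAX8-1 against shPAX8-2, 24.2% of all genes were called higher and 22.9% lower in 786-M1A, and 12.4% and 16.7% in OS-LM1. Between the constructs in 786-M1A, where TNFRSF10B was lower with shPAX8-1, the p53 target GDF15 (0.49) was higher and FDXR (-1.22), CDKN1A (-1.12), BAX (-0.58) and SESN1 (-0.54) were lower (4 and 4 without shPAX8-1 replicates 1 and 2), and 3 ATF4 and CHOP genes were higher and 0 lower, DDIT3 (1.72), ASNS (1.09) and ATF3 (0.73). With the GC trend removed all 8 ATF4 and CHOP genes were called higher there, with a median of 0.79 in place of 0.41, and without shPAX8-1 replicates 3 and 4 the count was 5. In OS-LM1, where TNFRSF10B differed by a like amount, 1 p53 target (XPC, 0.32) and 3 ATF4 and CHOP genes, CHAC1 (1.64), DDIT3 (0.81) and ASNS (0.77), were higher and 0 of either list lower, and with the GC trend removed 4 p53 targets and 5 ATF4 and CHOP genes were higher. Against sgNTC18 in 786-M1A, 10 of the 12 p53 targets were below 0, with a median of -0.65, and the ATF4 and CHOP list had a median of 0.67, as a description. The parts of p53 and CHOP in the level of TNFRSF10B were not tested.

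**Figure D5:**
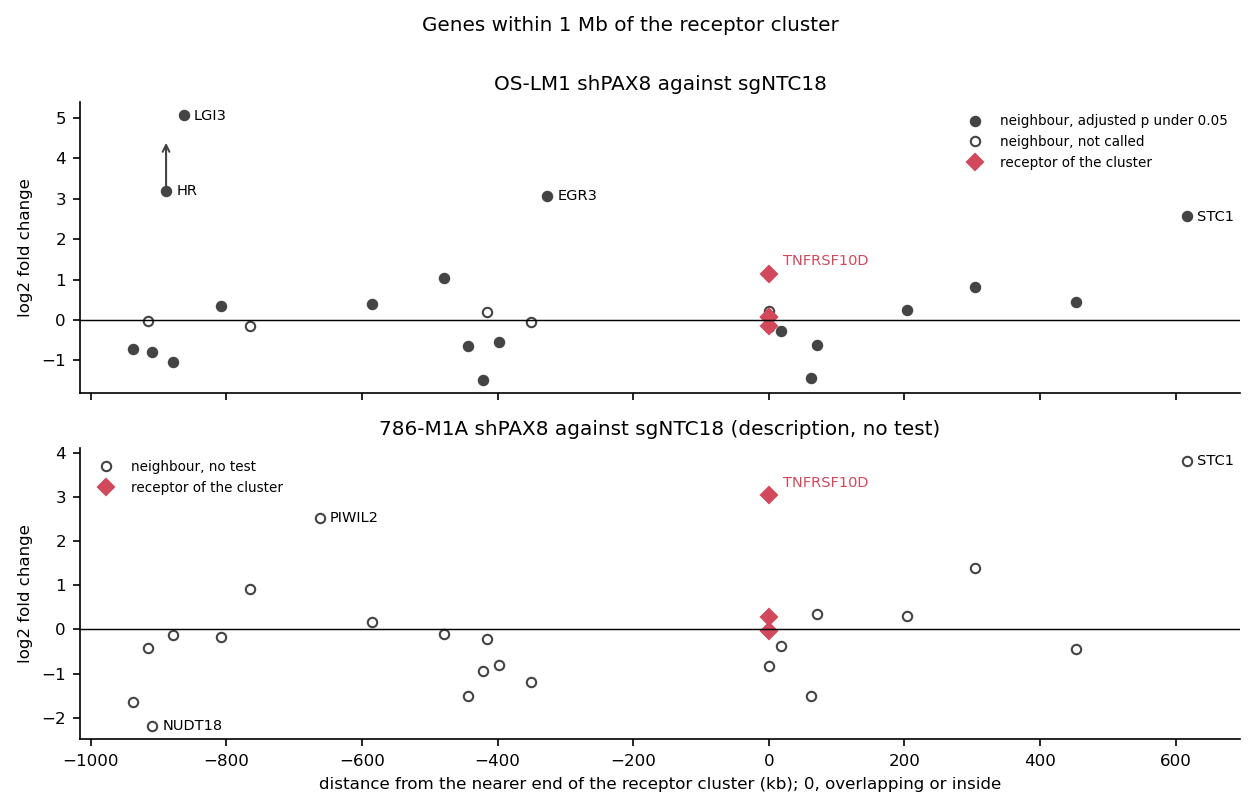
Log2 fold changes of shPAX8 against sgNTC18 (y axis) for genes within 1 Mb of the receptor cluster, by distance in kb from its nearer end (x axis), for OS-LM1 (tested) and 786-M1A (description), with the cluster's receptors as diamonds at 0. Neighbours lie on both sides of 0, and HR is drawn at its lower bound of 3.19 with an arrow.

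Genes around the cluster did not move as a block with TNFRSF10D. The annotation places 69 other genes within 1 Mb, of which 34 were in the files and 25 entered the OS-LM1 fit. Of these 10 rose, 9 fell and 6 did not pass the test, with a median log2 fold change of -0.02, against -0.01 over all genes. These counts are near the shares over all genes, 36.4% called higher and 37.1% lower. The log2 fold changes of this comparison had a Spearman correlation of -0.305 with transcript GC content across genes, and with that trend removed 12 neighbours rose and 5 fell. LGI3 rose by 5.06 from 5 counts in all 4 controls together (edgeR adjusted p = 9.55e-09), and the immediate early factor EGR3 rose by 3.07 (adjusted p = 4.59e-07). HR, a corepressor gene, had 0 counts in all 4 sgNTC18 libraries and 0.243 to 1.439 CPM with the constructs, at least 9.12-fold higher against a floor of 3 counts per library. The neighbours that overlap a receptor gene, RHOBTB2 at the end of TNFRSF10B and LOC254896 at the start of TNFRSF10C, had log2 fold changes of -0.16 (adjusted p = 0.184) and 0.22 (adjusted p = 0.153). Whether counting used strand is not stated, so reads in these overlaps cannot be assigned with certainty.

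In 786-M1A 7 of the 22 neighbours in the fit were above 0 and 15 below, as a description. STC1 (3.81), a secreted glycoprotein gene, PIWIL2 (2.53) and NUDT18 (-2.18) were farthest from 0. Between the constructs there, 24.2% of all genes were called higher with shPAX8-1 and 22.9% lower. Of the 22 neighbours 4 were higher, PPP3CC (0.74) most, and 12 were lower, led by SORBS3 (-1.32), PDLIM2 (-1.21) and BMP1 (-1.07), where TNFRSF10D differed by 0.02. The log2 fold changes of this contrast had a Spearman correlation of -0.557 with transcript GC content across genes, and with that trend removed the counts were 4 and 8. They were 3 and 13 without shPAX8-1 replicates 1 and 2 and 3 and 8 without replicates 3 and 4. In OS-LM1 12.4% of all genes were called higher with shPAX8-1 and 16.7% lower. Of the neighbours there, LOC254896 (0.63) and PPP3CC (0.41) were higher and 6 of 25 were lower. Among the lower were HR (-1.15), LOXL2 (-0.80) and SORBS3 (-0.65), and TNFRSF10D was lower as well. With the GC trend removed 5 were higher and 7 lower.

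The genes whose log2 CPM most resembled that of TNFRSF10D over all 24 libraries were LOX (Pearson r 0.984), a collagen cross-linking enzyme, SLC9A7 (0.975) and TMBIM6 (0.973). Over the 12 libraries of OS-LM1 they were P3H2 (0.998), AKAP2 (0.994) and TP53BP2 (0.993), and over those of 786-M1A LOX (0.997), ABAT (0.996) and MXI1 (0.996). For TNFSF10 they were CEBPD (0.97), ZMYM3 (0.966) and SEMA4D (0.965) over all libraries, TM4SF18 (0.996), MMP7 (0.995) and UPF3B (0.993) in OS-LM1, and HADHB (0.978), SYTL3 (0.966) and LHFPL2 (0.96) in 786-M1A. No gene was among the first 3 for TNFSF10 in both lines. For TNFRSF10B the closest over all libraries were ZBTB39 (0.938), CDS2 (0.93) and RAB11FIP1 (0.926), for TNFRSF11B PPP2CB (0.948), GRAMD3 (0.946) and FYTTD1 (0.937), and for TNFRSF10A DDB1 (0.665), RN7SL1 (0.643) and THOC5 (0.641). These values share the construct groups and the library depths and describe likeness only.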

How the data were processed

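Gene-level tables of 24 RNA-seq libraries were used. Per the labels and the study's methods, the authors aligned reads with Bowtie2 and estimated expression with RSEM on hg38, and the versions are not given in the sources used here. The deposited expected counts and TPM values were used as they stand, with expected counts rounded to whole numbers for the tests. The labels and the study's methods name different library kits. Groups came from the labels. The members, lists and tests were chosen with earlier results of these data known.

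In R 4.3.3, edgeR 4.0.16 was run per line on genes passing filterByExpr (minimum count 10) with TMM scaling and the robust quasi-likelihood test, with Benjamini-Hochberg adjustment over all genes tested (14452 in 786-M1A, 15049 in OS-LM1, 15665 for the line difference) and a threshold of 0.05. Intervals are the log2 fold change ± 1.96 SE. Shares and levels are means ± SD over 4 libraries. The depth of 11634419 to 52059375 counts per library leaves TNFRSF10C and TNFRSF11B imprecise. Intervals and floors cover counting error or the spread between libraries as stated.

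Genes named were the 6 members, PAX8, the 3 called genes with the largest absolute change of each list (in the 786-M1A description, the 3 largest changes) and the 3 genes closest to each member by Pearson correlation among those with an average log2 CPM of at least 1. RHOBTB2 and LOC254896 were named for overlapping a receptor gene, and members of small counts (IFI44, GDF15, SESN1, PPP3CC, APAF1, PPP1R15A among them) after their values were seen. Some list genes are counted but not reported here by name. Alternatives were DESeq2 1.42.0 and its size factors, no filter, thinning, a replicate block, removal of a GC trend and leaving out libraries. Scripts were tested on simulated data.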

Additional observations from a re-analysis of the deposited data

Results flagged for a closer look

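TNFRSF11B in 786-M1A shPAX8-1 replicate 1 stood at 0.7843 CPM, far from the other 3 replicates of its group at 2.025 to 2.107 CPM. It was the only such library among 42 groups of 4 checked (7 genes, PAX8 included), where chance alone would give about 2.1. Replicates 1 and 2 of this group also stood apart from replicates 3 and 4 across all genes, but replicate 2 stood with the higher TNFRSF11B values.

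The contrast of shPAX8-1 with shPAX8-2 differed between the lines for 3 members and for PAX8 (edgeR, 24 libraries). The log2 difference, OS-LM1 minus 786-M1A, was 1.82 for TNFSF10 (adjusted p = 1.34e-08), where the fold change was 0.12 in OS-LM1 and -1.67 in 786-M1A. It was -1.5 for TNFRSF11B (adjusted p = 0.00984), -0.36 for TNFRSF10D (adjusted p = 0.05 after rounding) and 1.16 for PAX8 (adjusted p = 0.00015). The call was lost in 26 of 33 alternative analyses for TNFRSF10D and in 1 of 33 for TNFRSF11B.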

How the results depend on the processing

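The 6 counts of genes called were computed under 130 alternatives, of which 127 stayed within 1.5 times the count given first. The exceptions rest on 786-M1A shPAX8-1. For shPAX8-1 against shPAX8-2 in 786-M1A, 6803 genes were called, and 3869 without replicates 3 and 4. For the line difference 4264 were called, 6817 without replicates 1 and 2 and 2579 without replicates 3 and 4. In 58 results for single genes, 1125 of 1212 alternatives were counted as the same, which for tested values means the same direction and call. Another 40 ended a call, 2 made one, 13 moved a described value and 32 turned the sign of a tested value that had not been called. Smaller shifts of described values were counted as the same even where the sign turned. TNFRSF10A with shPAX8-1 in 786-M1A, for example, went from 0.17 to -0.03 without replicates 1 and 2. Removing the GC trend gave 0.015 for TNFRSF10A with shPAX8-2 in OS-LM1 (0.005 with the replicate block as well), 0.10 for PAX8 between the constructs in OS-LM1 (0.094) and -0.043 for TNFRSF10D between the constructs in 786-M1A (-0.04), which was -0.002 after thinning. TNFRSF10A in the line difference was 0.004 after thinning and 0.18 without 786-M1A shPAX8-1 replicates 1 and 2. Leaving out 1 library at a time gave -0.002 to 0.108 for TNFRSF10B and -0.085 to 0.303 for TNFRSF10C in OS-LM1 shPAX8, -0.086 to 0.052 for TNFRSF10A and -0.62 to 0.029 for TNFRSF10C in OS-LM1 shPAX8-2, -0.136 to 0.087 for PAX8 between the constructs in OS-LM1, -0.031 to 0.06 for TNFRSF10D between the constructs in 786-M1A, and -0.178 to 0.075 for TNFRSF10A and -0.123 to 0.003 for TNFRSF10B in the line difference. The cause of these shifts was not tested. With the GC trend removed the described log2 fold change of TNFSF10 in 786-M1A went from 0.25 to -0.01, and with shPAX8-1 from -0.58 to -1.03.

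Taken over both lines, replicate numbers did not show a pairing of the samples. Deviations of same-numbered libraries had a mean correlation of 0 (-0.722 to 0.727, over 0.1 in 9 of 24 pairs), and 10 of 48 matches were best with the own number. Between shPAX8-1 and shPAX8-2 in 786-M1A, however, same-numbered libraries correlated at 0.508, 0.383, 0.727 and 0.105. Libraries of different number ran from -0.814 to 0.74 there, so a pairing in that contrast is not excluded. With the replicate block the counts of genes called were 10718 against 11052 for OS-LM1 shPAX8, 10355 against 10746 and 9846 against 10296 for its constructs, 3642 against 4378 between them, 6998 against 6803 between the constructs in 786-M1A and 4009 against 4264 for the line difference. Among the members the block ended the calls of TNFRSF10B in OS-LM1 shPAX8-1 (-0.22, adjusted p = 0.0578) and of TNFRSF10D in the line difference (-0.36, adjusted p = 0.0807), and no other.

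Depth limits TNFRSF10C, at 0 to 16.71 counts per library, and TNFRSF11B, at 5 counts in its lowest library.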
